A study of Tetradesmus deserticola with 10 samples.

Results

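The comparison described here is that of the Rehydrated stage, sampled 1 h after water was given back, with the Dry stage of the desert green alga Tetradesmus deserticola (Acutodesmus deserticola in the submitters' naming), strain Sni-2. It rests on 4 of the 10 RNA-seq libraries, 2 per stage, chosen by their stage label alone. The 2 Hydrated libraries served as the reference that sorted the changing transcripts into classes. All groups shared the strain, a culture age of 6 weeks and drops of 40 µL on cover glass. Hydrated drops were taken as soon as they had been spotted, and Early and Late drops after 2.5 h and 7.5 h of drying, when 25% and 60% of the volume was gone. Dry drops had flattened completely, were held for 11 h more in the drying chamber, and were taken near 24 h. Rehydrated drops had passed through dryness and then spent 1 h in water. There was no set of drops kept wet for the same hours and none kept dry for 1 h more, so the return of water and elapsed time cannot be told apart. Separate cultures for the 2 libraries of each stage are not stated in the labels, so that p-values measure only how far these libraries spread, and that spread may be technical.

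Desiccation-tolerant green algae lose nearly all free water, stop their metabolism and resume photosynthesis and growth after rewetting. In the desiccation-tolerant moss Syntrichia ruralis, some transcripts are stored through the dry state in particles with protein, and others accumulate only after water returns. A transcript that is scarce in dry cells and present in rewetted cells can be back at the level it had before drying or above it. The comparison with the Hydrated level sorts transcripts by this.

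Of the 20783 assembled genes, 9856 had enough counts for a test. Expression was compared as CPM, the count of a gene per 1000000 counts of its library after scaling with TMM factors, which set the bulk of genes to a common level. Per edgeR's quasi-likelihood test at an adjusted p under 0.05, 713 genes (7.23% of those tested) were higher in Rehydrated than in Dry and 1330 (13.5%) were lower, 2043 (20.7%) in all. The Dry libraries held 1453206 and 1594103 counts and the Rehydrated libraries 644686 and 826625. Their TMM factors were far apart, at 0.471 and 0.403 in Dry and 1.99 and 1.24 in Rehydrated. The median log2 fold change over all tested genes was 0.45 with TMM, 0.41 with DESeq2's median-ratio factors (RLE), 0.64 with upper-quartile factors and 2.28 with library totals alone. With library totals 5870 genes were higher and 221 lower, so that 96.4% of the called genes were higher, against 34.9% with TMM, 31.8% with RLE and 44.1% with upper quartiles. Under all 4 scalings, 642 genes (6.51%) were called higher and 221 (2.24%) lower. RNA amounts per cell were not measured, and in these bulk samples fewer contributing cells and less RNA per cell cannot be told apart. Without Dry replicate 1 the higher genes numbered 281 and the lower genes 856, and without Dry replicate 2 the higher genes numbered 361.

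Rehydrated replicate 1 stood apart from the other libraries in how its low counts were spread. It had counts for 19459 genes in spite of having the smallest total. Its median count rose from 2 in the shortest of 10 length bins to 18 in the longest, against 1 to 13 in Rehydrated replicate 2 and 1 to 6 in each Dry library; in the deeper Hydrated libraries the rise was from 4 to 44 and from 3 to 35, and in Early and Late the longest bin held 18 to 29. What set it apart was the relation to length among genes not seen in Dry and the narrow spread of its levels. Among the 3203 genes at 0 counts in both Dry libraries, the Spearman correlation of count with relative gene length across genes was 0.439 in Rehydrated replicate 1 and 0.278 in replicate 2. It was 0.0706 and 0.231 in the Hydrated libraries, and lay between 0.0291 and 0.0948 in the 4 libraries taken during drying. Relative gene length is the count divided by the deposited signal, which is corrected for length. On the scale of count per length relative to the library's median gene, the lower and upper quartiles were 0.556 and 1.80 in Rehydrated replicate 1 and 0.377 and 2.42 in replicate 2. They were 0.317 and 3.21 in Hydrated replicate 1 and 0.462 and 2.62 in Hydrated replicate 2. Among genes not seen in Dry, counts in Rehydrated replicate 1 thus followed gene length most closely. Rehydrated replicate 2, at 0.278, was only a little above Hydrated replicate 2, at 0.231. Over all assembled genes the correlation was 0.547 and 0.459 in the Rehydrated libraries and 0.432 and 0.490 in the Hydrated ones. The part of this relation to length in the rises below was not tested.

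**Figure D1:**
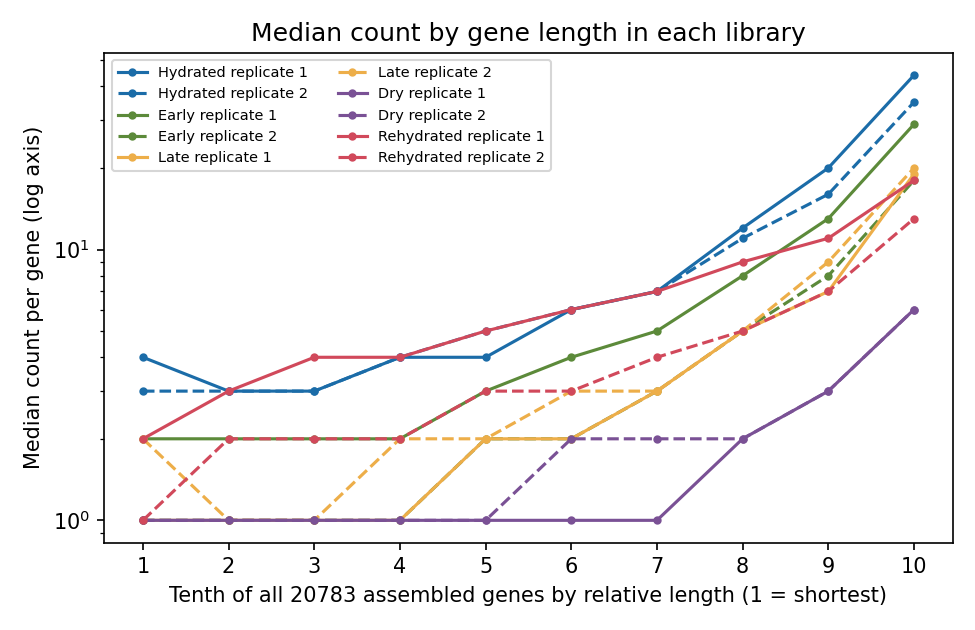
Median count per gene (vertical axis) in each of 10 equal bins of the assembled genes by relative length (horizontal axis, shortest to longest), a line per library. The line of Rehydrated replicate 1 climbs from 2 to 18 counts, above those of Rehydrated replicate 2 and of both Dry libraries, which end at 13 and 6.

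The genes that were higher after 1 h in water fell into 3 classes by their Hydrated level. Reappearing genes, 501 in all (5.08% of those tested), were lower in Dry than in Hydrated and higher again in Rehydrated than in Dry. Newly rising genes, 128 in all (1.30%), were not called lower in Dry and were higher in Rehydrated than in both Dry and Hydrated. The remaining 84 (0.852%) are called other rising here. The classes used 3 comparisons that share libraries, in which 2379 genes (24.1%) were lower and 2015 (20.4%) higher in Dry than in Hydrated, and 1570 (15.9%) were higher and 1748 (17.7%) lower in Rehydrated than in Hydrated. The direction against each reference is therefore part of the definition of a class and no separate result. Of the reappearing genes 451 were called higher under all 4 scalings, as were 118 of the newly rising and 73 of the other rising genes. DESeq2 called 238, 59 and 10 of them higher. Every member of the 3 classes kept its sign under every alternative in which it was fitted.

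**Figure D2:**
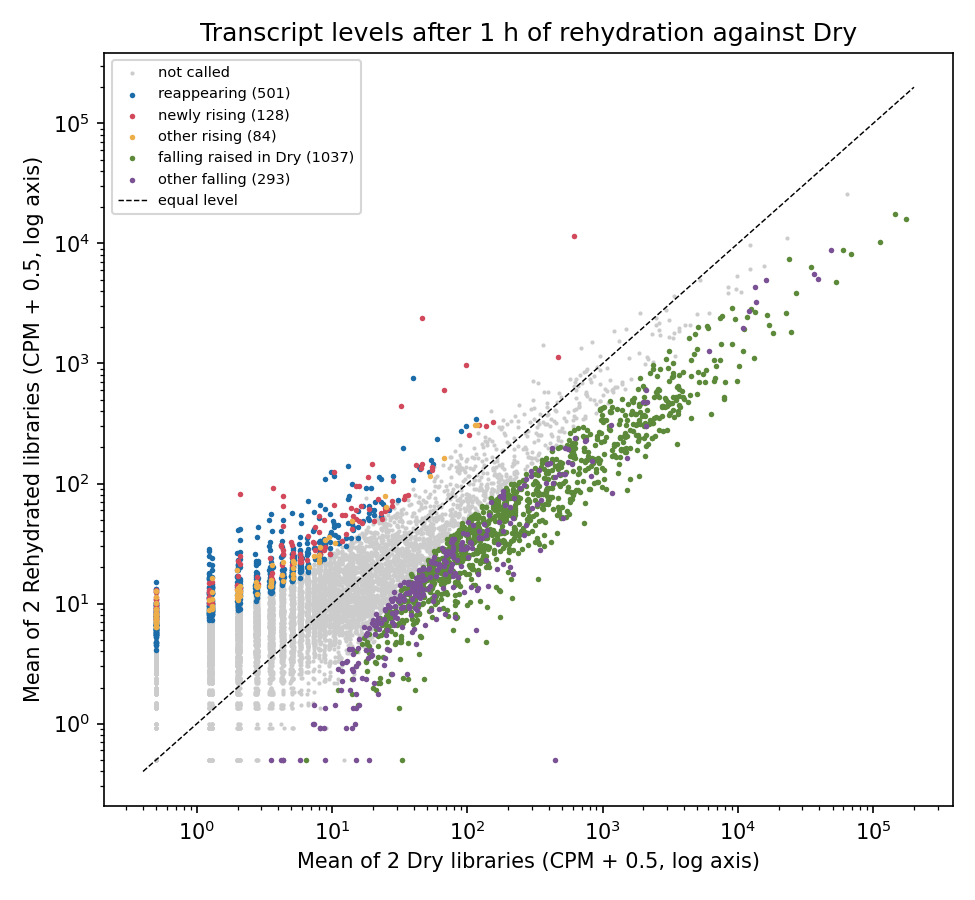
Mean level of each tested gene in Rehydrated (vertical axis) against Dry (horizontal axis), in CPM + 0.5 on log axes, each point a gene coloured by its class. Reappearing genes lie at the low end of the Dry axis and genes raised in Dry at its high end, where they sit below the line of equal level. When libraries are scaled by their totals alone the cloud shifts upward, and 401 of the 1037 falling genes raised in Dry and 141 of the 293 other falling genes have a positive fold change.

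Reappearing genes were scarce in Dry and modest in Rehydrated. The median member stood at 22.6 and 21.0 CPM in the Hydrated libraries, 17.8 and 18.0 in Early, 16.01 and 16.25 in Late, 1.47 and 1.57 in Dry, and 14.3 and 15.97 in Rehydrated. In TMM-scaled CPM the class median was thus low in both Dry libraries only, and 1 h after water it was near its Late level. By share of the library, given below, the class was already smaller in Early and Late than in Hydrated. In counts, the median member had 1 in each Dry library and 17 and 16 in the Rehydrated libraries. The median log2 fold change of Rehydrated against Dry was 2.76, with the middle 80% of members between 1.71 and 6.13, against 0.45 over all tested genes. For 86 members both Dry libraries held 0 counts, so that their fold is a lower bound; with 3 counts per library as the floor for such genes the class median was 2.24. As a share of all counts, the class took 3.87% ± 0.099 (SD, n = 2) of the Hydrated libraries, then 2.17% ± 0.382 of the Early and 1.56% ± 0.396 of the Late ones. It took 0.113% ± 0.0289 of the Dry and 1.94% ± 0.113 of the Rehydrated libraries.

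Most reappearing genes were not called different from Hydrated, and others were still lower. Against Hydrated, 357 of the 501 reappearing genes did not pass the test in either direction, 134 were still lower and 10 were higher. Over all 9856 tested genes, 6538 did not pass it, 1748 were lower and 1570 higher. Not passing at these low counts does not show a return to the Hydrated level. By fold alone, 335 reappearing genes were within 2-fold of their Hydrated level. Another 149 were at least 2-fold below it and 17 at least 2-fold above it. Over all tested genes, 4653 were within 2-fold, 2604 at least 2-fold below and 2599 at least 2-fold above. In 460 members (91.8%) both Dry libraries were below all 4 Early and Late libraries, against 34.6% of all tested genes. The class was picked for low values in these Dry libraries, so this share follows largely from its definition. In 91 members (18.2%) both Rehydrated libraries exceeded all 4 Early and Late libraries, against 29.5% of all tested genes. In 150 (29.9%) both were below all of them, against 27.4%. The median log2 ratio, with 0.5 CPM added to both values, was 2.53 between the libraries numbered 1 and 2.68 between those numbered 2. Per length, 220 members (43.9%) were more than 2 times the median gene in both Rehydrated libraries, against 33.4% of all tested genes, and 64 were more than 4 times it. Without Dry replicate 1 the class held 212 genes and without Dry replicate 2 it held 255.

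**Figure D3:**
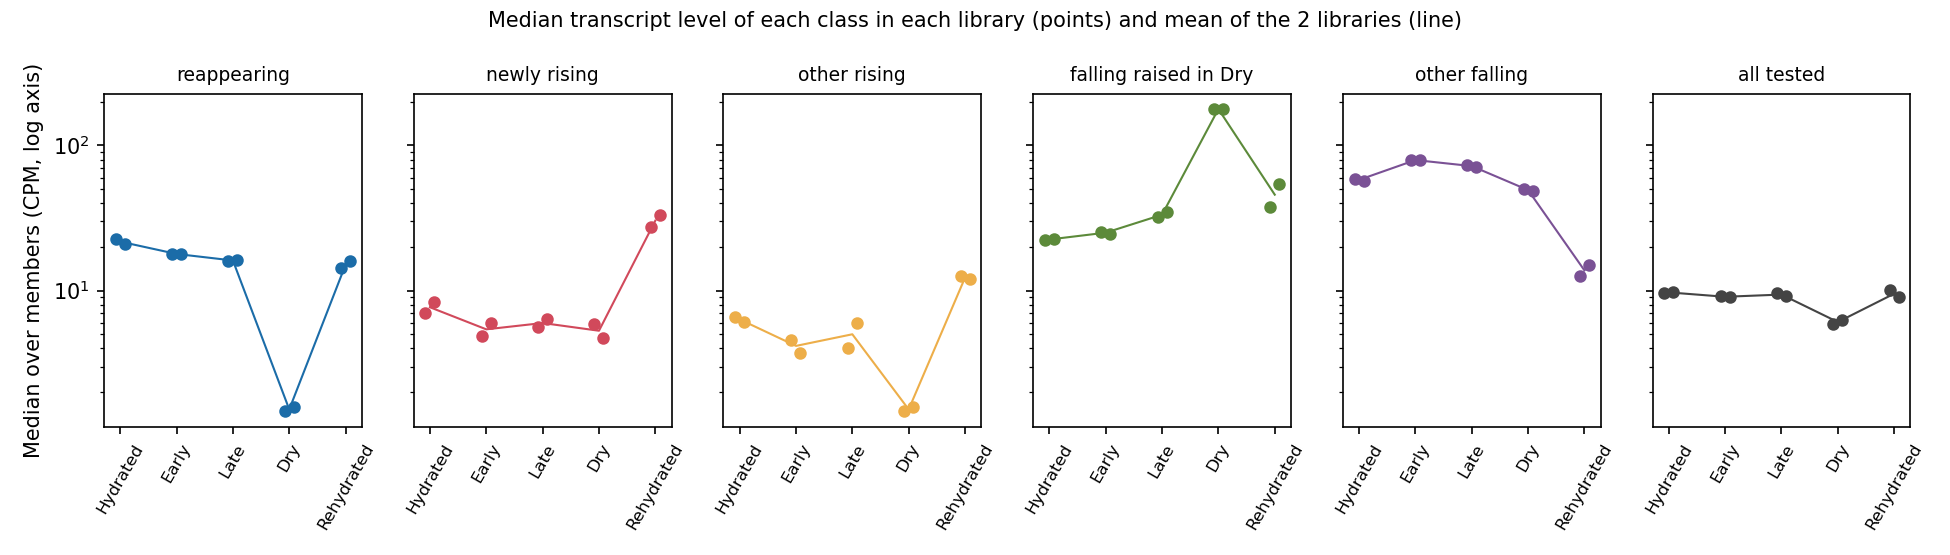
Median CPM (vertical axis, log) of the members of each class, and of all tested genes, in each of the 10 libraries (points, with a line through the stage means), by stage along the horizontal axis. In TMM-scaled CPM, the median of reappearing genes dips only in Dry and that of newly rising genes is highest in Rehydrated. Falling genes raised in Dry peak in Dry, and other falling genes are lowest in Rehydrated. With library totals in place of TMM, 401 of the 1037 falling genes raised in Dry and 141 of the 293 other falling genes are higher in Rehydrated than in Dry.

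The reappearing gene that met the naming rule, TRINITY_DN176787_c2_g1, was also the most abundant of its class in Rehydrated. It had 534 and 222 counts in Hydrated, 194 and 184 in Early, 75 and 115 in Late, 38 and 14 in Dry, and 566 and 1034 in Rehydrated. In CPM this was 191 and 103, then 98.7 and 138, 60.0 and 81.2, 55.9 and 22.0, and finally 475 and 1032. Both Rehydrated libraries lay above all 8 others and both Dry libraries below all others. The log2 fold change against Dry was 4.27 (SE 0.543, edgeR adjusted p = 2.37e-05), which is 3.82 above that of the median gene, and 5.99 with library totals. Against Hydrated the gene was lower in Dry by a log2 fold change of -1.91 (edgeR adjusted p = 0.00389) and higher in Rehydrated by 2.35 (edgeR adjusted p = 0.000654). It was therefore among the 10 members that passed beyond their starting level. With 1 library left out at a time, its log2 fold change against Dry ranged from 3.60 to 5.14.

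Newly rising genes were higher in Rehydrated than at either the start or the end of drying. The median member stood at 6.98 and 8.38 CPM in Hydrated, 4.83 and 5.99 in Early, 5.60 and 6.36 in Late, 5.88 and 4.70 in Dry, and 27.3 and 33.4 in Rehydrated. The median was thus much the same from Early to Dry, while single members differed. In 26 of the 128 (20.3%) both Dry libraries exceeded all Early and Late libraries, against 25.8% of all tested genes. In 23 (18.0%) both were below all of them, against 34.6%. With library totals in place of TMM, 33 of the 128 remained in this class. In 118 of the 128 (92.2%) both Rehydrated libraries were above all 8 others, against 11.3% of all tested genes and 6.59% of the reappearing genes. The lead over Early and Late held in the same number, 118, against 29.5% of all tested genes. Members were chosen for high values in these same Rehydrated libraries, so both shares follow largely from the definition and are a description. The median log2 fold change against Dry was 2.58, the middle 80% of members spanned 1.31 to 6.41, and with the 17 members at 0 in both Dry libraries set to their bound the median was 2.14. Against Hydrated the median was 2.08. The median log2 ratio was 2.26 between the libraries numbered 1 and 2.47 between those numbered 2. Per length, 97 members (75.8%) were more than 2 times the median gene in both Rehydrated libraries and 60 were more than 4 times it, against 33.4% and 18.2% of all tested genes. The number in the class moved with single libraries, to 51 genes without Hydrated replicate 1, 59 without Dry replicate 1, 74 without Dry replicate 2 and 81 without Rehydrated replicate 2.

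A single transcript made up much of this class by count. The most abundant newly rising gene had 79 and 292 counts in Hydrated, 247 and 1055 in Early, 169 and 387 in Late, 360 and 441 in Dry, and 17655 and 8197 in Rehydrated. It alone accounted for 2.74% of all counts in Rehydrated replicate 1 and 0.992% in replicate 2. Its counts were fractional in all 10 libraries, which arises when reads that match several assembled genes are divided among them, so its level is uncertain. Its log2 fold change against Dry was 4.24 (edgeR adjusted p = 0.00037), and it had already been higher in Dry than in Hydrated, by 2.90 (edgeR adjusted p = 0.00256). The class as a whole took 0.328% of the Hydrated libraries, 0.246% of the Early, 0.194% of the Late and 0.128% ± 0.00849 (SD, n = 2) of the Dry ones, a share that was smaller at each step of drying. It then took 3.65% ± 1.98 of the Rehydrated libraries, with 5.05% in replicate 1 and 2.25% in replicate 2. Shared reads were more common here than among reappearing genes, with counts that were not whole in 19 members (14.8%) against 14 (2.79%), and 9.33% of all tested genes. The share was highest among the falling genes raised in Dry described below, at 191 members (18.4%).

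TRINITY_DN182300_c1_g2 met the naming rule among newly rising genes. Its counts were 28 and 20 in Hydrated, 11 and 25 in Early, 5 and 20 in Late, 0 and 4 in Dry, and 111 and 88 in Rehydrated. Before rewetting it never exceeded 18.7 CPM, the value of Early replicate 2, and it stood at 93.2 and 87.8 CPM afterwards. Both Rehydrated libraries were clear of all others, and against Hydrated the log2 fold change was 3.21 (edgeR adjusted p = 3.12e-05). Against Dry it was 4.86 (SE 0.72, edgeR adjusted p = 6.71e-05), 4.41 above the median gene. With library totals the gene was called lower in Dry than in Hydrated, by a log2 fold change of -3.41 (edgeR adjusted p = 0.000863), and would count as reappearing. The value against Dry is loosely fixed, since it was 3.90 without Dry replicate 1, and without Dry replicate 2 the Dry stage holds 0 counts.

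**Figure D4:**
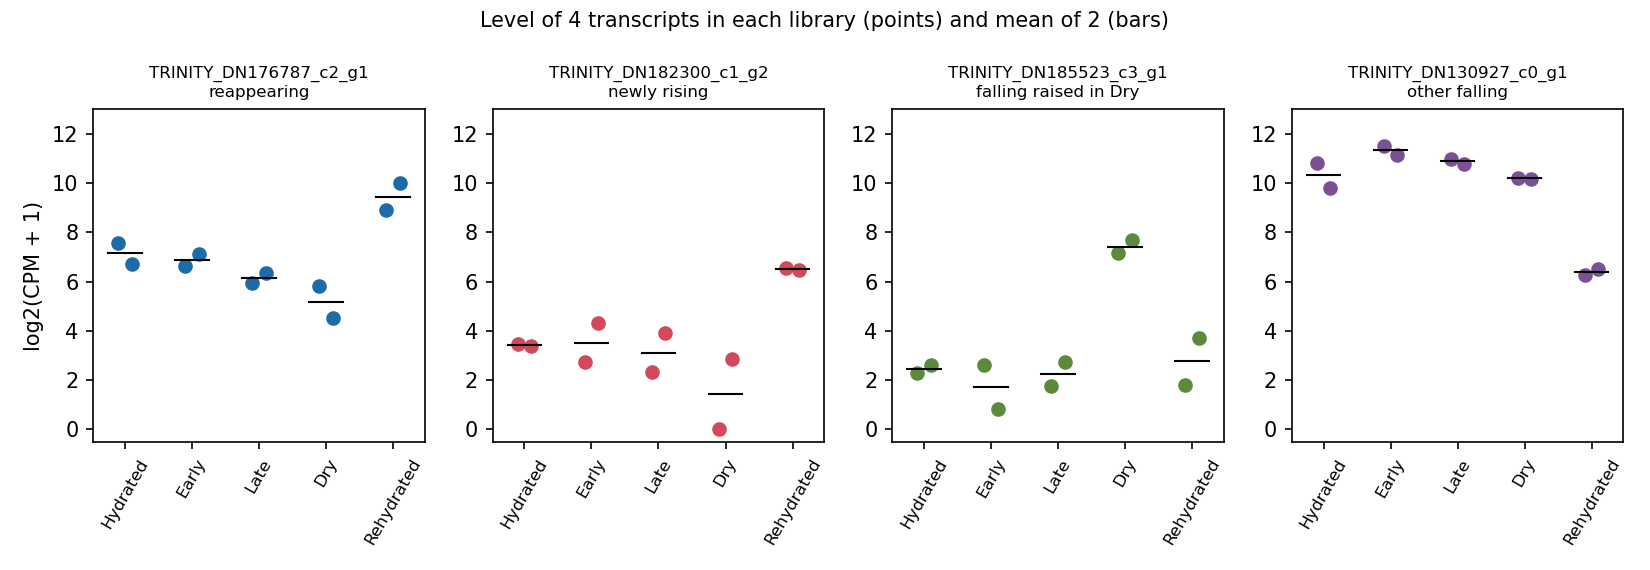
Level of the 4 named transcripts in each of the 10 libraries (vertical axis, log2 of CPM + 1), grouped by stage along the horizontal axis, with a point per library and a bar at the mean of 2. The reappearing and the newly rising transcript have their highest points in Rehydrated, the transcript raised in Dry stands alone in Dry, and the other falling transcript is at 76.4 and 89.8 CPM in Rehydrated, below every other library.

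Most of the 84 other rising genes had few counts. Their median member stood at 6.63 and 6.05 CPM in Hydrated, 1.47 and 1.57 in Dry, and 12.6 and 11.98 in Rehydrated. Both Dry libraries held 0 counts for 25 of them. In 58 (69.0%) both Rehydrated libraries were above all Early and Late libraries, against 29.5% of all tested genes. Choosing members for high Rehydrated values favours this. Against Hydrated, 39 were at least 2-fold higher without passing that test. The most abundant had 87 and 68 counts in Dry and 277 and 380 in Rehydrated, a log2 fold change of 1.38 (edgeR adjusted p = 0.0204). Its 717 and 339 counts in Hydrated were 257 and 158 CPM, against 233 and 379 CPM in Rehydrated, and these stages overlapped. The number in this class was unstable, with 10 genes without Dry replicate 1, 32 without Dry replicate 2, 45 without Rehydrated replicate 1, 186 without Hydrated replicate 1 and 135 without Hydrated replicate 2.

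With TMM, most genes that were lower after rewetting had been raised in Dry, whereas with library totals 96 of the 221 lower genes had been and 125 had not. Of the 1330 lower genes, 1037 (10.5% of those tested) were higher in Dry than in Hydrated and are called falling genes raised in Dry, and 293 (2.97%) are called other falling. With library totals, 401 of the 1037 and 141 of the 293 had a fold change of the opposite sign, none of them called, and 191 and 30 were still called lower. No member of either class was called the other way under any alternative. The median log2 fold change was -2.05 among genes raised in Dry, with the middle 80% between -3.12 and -1.31, and -0.225 with library totals. Among other falling genes it was -1.88 and, with library totals, -0.0387. DESeq2 called 938 and 250 of the members lower. Without Dry replicate 1 the first class held 652 genes, and without Rehydrated replicate 1 the other held 183.

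Falling genes raised in Dry carried most of the Dry RNA. The class took 69.6% ± 0.707 (SD, n = 2) of all counts in Dry, against 36.8% ± 4.67 in Rehydrated. Before dryness its share was 37.8% ± 0.778 of the Hydrated, 40.7% ± 6.29 of the Early and 49.8% ± 4.53 of the Late libraries. Given the class, these shares do not depend on TMM. The median member stood at 22.2 and 22.8 CPM in Hydrated, 25.4 and 24.7 in Early, 32.0 and 34.6 in Late, 179 and 177 in Dry, and 37.8 and 53.9 in Rehydrated. In 942 members (90.8%) both Dry libraries exceeded all Early and Late libraries, against 25.8% of all tested genes. Since high values in these Dry libraries put genes in the class, this share follows largely from its definition. Against Hydrated, 407 members were still higher in Rehydrated, 570 did not pass the test and 60 were lower. Over all 9856 tested genes, 1570 were higher, 6538 did not pass it and 1748 were lower. By fold alone 439 members were at least 2-fold above Hydrated, 495 within 2-fold and 103 at least 2-fold below. Over all tested genes these numbers were 2599, 4653 and 2604. The median log2 ratio was -2.37 between the libraries numbered 1 and -1.80 between those numbered 2.

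**Figure D5:**
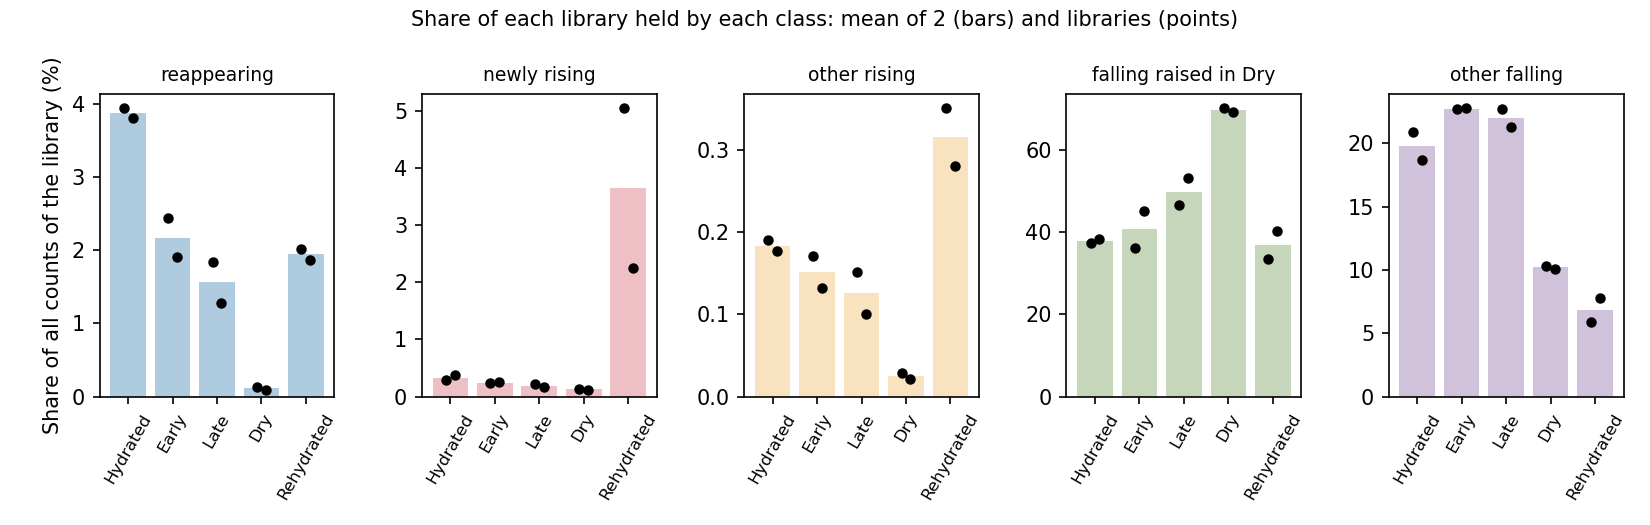
Share of all counts in a library (vertical axis, percent) held by each class in each of the 5 stages, with a bar at the mean of 2 libraries and a point per library. Falling genes raised in Dry hold 69.6% in Dry and 36.8% in Rehydrated, other falling genes decline from 10.2% to 6.84%, and newly rising genes go from 0.128% to 3.65% with the 2 Rehydrated libraries far apart.

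The most abundant member of this class dominated the Dry libraries. It had 9391 and 8904 counts in Hydrated, 5765 and 2740 in Early, 3336 and 5203 in Late, 100791 and 130185 in Dry, and 11743 and 22325 in Rehydrated. In Dry it alone made up 6.94% and 8.17% of the library, and the 10 most abundant members together 30.7% and 31.6%. Its log2 fold change against Dry was -3.45 (edgeR adjusted p = 0.000224), and its counts were fractional in all 10 libraries, which leaves its level uncertain. In Rehydrated this most abundant member was still above Hydrated, by a log2 fold change of 2.10 (edgeR adjusted p = 0.00627). TRINITY_DN185523_c3_g1, which met the naming rule, also stood highest in Dry, at a lower level. Its Rehydrated level did not pass the test against Hydrated, with a log2 fold change of 0.625 (edgeR adjusted p = 0.484). Its counts were 11 and 11 in Hydrated, 10 and 1 in Early, 3 and 8 in Late, 96 and 131 in Dry, and 3 and 12 in Rehydrated, and all were whole. Both Dry libraries stood above the other 8, and the Rehydrated levels of 2.52 and 12 CPM fell on either side of the Hydrated levels of 3.94 and 5.12. The log2 fold change against Dry was -4.62 (SE 0.533, edgeR adjusted p = 1.3e-05) with TMM and -2.84 with library totals.

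Other falling genes were, in TMM-scaled CPM, near their Hydrated level in Dry and low in Rehydrated; with library totals 141 of the 293 were not below Dry. The median member stood at 59.1 and 56.8 CPM in Hydrated, 79.3 and 79.4 in Early, 72.9 and 71.35 in Late, 49.98 and 48.6 in Dry, and 12.6 and 15.0 in Rehydrated. In 270 members (92.2%) both Rehydrated libraries were below all Early and Late libraries, against 27.4% of all tested genes. In 260 (88.7%) they were below all 8 other libraries, against 7.49% of all tested genes and 17.5% of the falling genes raised in Dry. Members were chosen for low values in these Rehydrated libraries and for not being raised in Dry, so these shares follow largely from the definition. Against Hydrated, 217 were lower in Rehydrated and 76 did not pass the test, and 243 were at least 2-fold below their Hydrated level. Over all 9856 tested genes, 1748 were lower, 6538 did not pass it and 2604 were at least 2-fold below. For 43 of the 293 members the Dry level was already lower than Hydrated, as it was for 2379 (24.1%) of all tested genes. For 9 members both Rehydrated libraries held 0 counts, as they did for 2 falling genes raised in Dry. The class took 19.8% ± 1.56 (SD, n = 2) of the Hydrated, 22.8% ± 0.0707 of the Early and 22.0% ± 0.99 of the Late libraries. It took 10.2% ± 0.141 of the Dry and 6.84% ± 1.31 of the Rehydrated libraries, so that by share of the library the larger step was the one into Dry.

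TRINITY_DN130927_c0_g1 was the named gene of this class. It had 5067 and 1935 counts in Hydrated, 5804 and 3009 in Early, 2522 and 2481 in Late, 814 and 740 in Dry, and 91 and 90 in Rehydrated. Dry replicates stood at 1197 and 1160 CPM, inside the range of 901 and 1815 CPM in Hydrated, and the log2 fold change of Dry against Hydrated was -0.20 (edgeR adjusted p = 0.727). This too depends on the scaling: per 1000000 counts of the unscaled library the gene stood at 2642 and 1384 in Hydrated and 560 and 464 in Dry, and with library totals it was already lower in Dry by a log2 fold change of -2.00 (edgeR adjusted p = 0.000301). The Rehydrated libraries were at 76.4 and 89.8 CPM, far below all others. Against Dry the log2 fold change was -3.83 (SE 0.491, edgeR adjusted p = 2.61e-05), -4.27 relative to the median gene, and -1.97 with library totals. Against Hydrated it was -4.03 (edgeR adjusted p = 1.94e-06). With 1 library left out at a time the change against Dry stayed between -3.95 and -3.71. The most abundant member of the class had 27931 and 36278 counts in Dry and 5042 and 13490 in Rehydrated. This was a log2 fold change of -2.47 (edgeR adjusted p = 0.00676). That gene was not called under all 4 scalings, and its counts were fractional in all 10 libraries.

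With TMM, lower genes were concentrated among the most abundant genes and higher genes were spread over the range. Tested genes were cut into 4 equal bins by mean TMM-scaled CPM over the Dry and Rehydrated libraries. These are the libraries compared, so a gene high in Dry tends to fall in a high bin. In the lowest bin, up to 4.24 CPM, 105 genes (4.26%) were higher and 12 lower. In the next, up to 8.08 CPM, 193 were higher and 25 lower, and in the third, up to 22.5 CPM, 280 (11.4%) were higher and 161 lower. In the highest bin 135 genes (5.48%) were higher and 1132 (45.9%) lower. The median log2 fold change went from 1.32 in the lowest bin through 0.95 and 0.31 to -1.02 in the highest. Low genes need a larger change to pass, so the counts per bin also follow the depth. With library totals 5870 genes were higher and 221 lower, and the bins were not counted under that scaling.

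Among the genes that were most abundant in Dry, the share of the library was smaller in both Rehydrated libraries. The 10 most abundant took 32.9% and 36.1% of the Dry libraries and 12.3% and 18.8% of the Rehydrated ones, against 24.2% and 25.1% of the Hydrated ones. Of these 10 genes, 9 were lower, 8 of them under all 4 scalings, with a median log2 fold change of -3.00 (-1.27 with library totals). Of the 100 most abundant, 80 were lower, 48 of them under all 4 scalings, and 0 were higher; their share went from 66.4% and 68.6% to 38.2% and 47.6%. Of the 1000 most abundant, 687 were lower and 5 higher, and 190 were lower under all 4 scalings. The median of the 1000 was -1.73 with TMM and 0.06 with library totals, so its direction depends on the scaling. These genes were picked by their level in the same Dry libraries, so their counts are a description.

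Detection was compared at an equal depth of 644686 counts. Only the library total is matched in this way: the 100 genes most abundant in Dry took 66.4% and 68.6% of the Dry libraries and 38.2% and 47.6% of the Rehydrated ones, so fewer counts were left for all other genes in Dry. In a single random draw at that depth, 10421 and 10757 of the 20783 genes were detected in Dry and 19459 and 16481 in Rehydrated. In total 4139 genes were at 0 in both Dry libraries and detected in both Rehydrated libraries, and 46 showed the reverse. Of the 4139, 3992 had been detected in a Hydrated, Early or Late library and 147 were at 0 in all 6 of those. Their median count was only 5 in Rehydrated replicate 1 and 2 in replicate 2, and 464 had at least 5 counts in both. At an equal TMM-scaled depth, added after seeing the data, 1437 genes were regained and 265 showed the reverse. With all counts kept the number regained was 1845, of which 5 were at 0 in all 6 libraries before dryness. The 3992 are 96.4% of the regained genes, against 98.1% of all assembled genes seen in those 6 libraries, so having been seen before is no property of the regained genes. A transcript at 0 in Dry may have been present below the floor of 3 counts. That floor is a mean of 4.56 CPM in the full Dry libraries and lies higher at the equal depth.

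The replicates were compared gene by gene over the 9856 tested genes. The log2 ratio of Rehydrated to Dry had a Pearson correlation of 0.504 and a Spearman correlation of 0.522 across genes between the libraries numbered 1 and those numbered 2, which share no library; genes are not independent replicates. Of the 5889 genes at least 2-fold from the median in the first pair, 4602 (78.1%) were on the same side of the median in the second and 2960 also at least 2-fold. Over genes with a mean of at least 50 counts in the 4 libraries the Pearson correlation was 0.826. There were 1303 such genes, of which 674 were falling genes raised in Dry, 82 other falling, 22 reappearing, 25 newly rising and 5 other rising. The falling classes were thus measured with deeper counts than the rising ones.

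The relative length of a gene, a measure no class used, moves when reads shift between assembled isoforms of different length. Of 1137 genes with enough counts in all 10 libraries, 11 (0.967%) differed between Rehydrated and Dry in limma's moderated test at an adjusted p under 0.05, 6 of them longer and 5 shorter in Rehydrated. Of the 11, 1 differed by more than 1.5-fold. At an unadjusted p under 0.05 there were 232. The number was 0 of 1588 genes (353 at an unadjusted p under 0.05) when only Dry and Rehydrated libraries were used, and reached 77 without Rehydrated replicate 2. Among the 521 falling genes raised in Dry in this test, 4 were longer and 2 shorter, and of the 102 other falling genes 1 was longer and 1 shorter. Of the 6 reappearing, 10 newly rising and 4 other rising genes with enough counts, 0 were called.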

How the data were processed

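RNA from 10 libraries was sequenced after removal of ribosomal RNA, per the labels' protocols. The authors deposited expected counts, not normalized, for 20783 assembled genes, and a length-corrected expression signal that they had scaled with TMM, per the file headers. CASAVA 1.4, Trimmomatic 0.35, Bowtie2 2.2, RSEM 1.2.28 and DESeq2 are listed in the submitters' processing notes; settings and assembly were not given in the sources used here. Identifiers come without gene names, so function, position and sequence are not given and no gene list was described.

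Stages were taken from the stage label and replicate numbers from the titles; 0 columns were left unused. Expected counts were rounded. filterByExpr at a minimum count of 10 kept 9856 genes with 98.3% of counts. Counts were scaled by TMM and tested with edgeR 4.0.16 (R 4.3.3) by quasi-likelihood in 1 fit over the 10 libraries (5 residual degrees of freedom), with Benjamini-Hochberg adjustment over all tested genes and a threshold of 0.05. The common coefficient of variation between libraries of a stage was 28.6%. The fit was tested on simulated data. With 2 libraries against 2, an exact permutation test has 0.333 as its smallest two-sided p, so none was made of single values. Relative length was tested with limma 3.58.1. Other scalings, filters, thresholds and reference stages, DESeq2 1.42.0, limma on the deposited signal, a replicate block and each library left out were tried, the last on the same 9856 genes.

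Named in each of 4 classes is the gene with the largest fold among those with 50 or more counts on average in the 4 Dry and Rehydrated libraries, over 3 counts in the lower stage, no overlap between the stages, the same call under 4 scalings and counts whole within 0.01 in those libraries; the most abundant member of each class is given without its identifier. The comparison, the classes and the rules were chosen with earlier results of these data known. Floors of 3 counts per library cover counting error only, since reads carry no molecular identifiers here.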

Additional observations from a re-analysis of the deposited data

How the results depend on the processing

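The numbers of genes depended on scaling, tool, threshold and single libraries, and the cause was not tested. With library totals there were 5870 higher and 221 lower genes, with 4139 reappearing, 544 newly rising, 1187 other rising, 96 falling raised in Dry and 125 other falling. Newly rising genes numbered 63 with no filter on low counts, and reappearing genes 793 at a minimum count of 30. DESeq2 gave 307 higher genes, 220 reappearing, 46 newly rising and 41 other rising. limma on log2(signal + 0.1) gave 883 lower genes, 904 reappearing, 24 newly rising and 522 falling raised in Dry, and on log2(signal + 1) 1466 higher, 1047 reappearing, 281 other rising and 617 falling raised in Dry. At an adjusted p under 0.01 there were 234 higher, 162 reappearing, 40 newly rising and 32 other rising. With Late as reference other rising genes numbered 136 and other falling 560, and with Early other falling 495. Counting members over 2 times the median gene per length, a choice made after seeing the data, left 220 reappearing and 32 other rising.

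With 1 library left out at a time, where a lone library is assumed to vary like the other stages, higher genes ranged from 281 to 790, lower from 856 to 1347, reappearing from 212 to 549, newly rising from 51 to 149, other rising from 10 to 186, falling raised in Dry from 652 to 1072 and other falling from 183 to 393. The 4 named genes kept their direction under every alternative, and their call in every fit with both libraries of each stage. They were picked for the largest fold, no overlap between the stages and the same call under the 4 scalings, so this is a description. With library totals TRINITY_DN182300_c1_g2 would count as reappearing.

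Genes at 0 in Dry and detected in Rehydrated numbered 1845 with all counts kept, of which 1840 were seen before dryness and 5 were at 0 there, with 92 the reverse. With 3 counts for detection they numbered 1440 (892 seen, 54 at 0, 494 with 1 or 2 counts at most; 6 the reverse), and with 5 counts 464 (288 seen, 5 at 0, 171 with fewer than 5; 3 the reverse). At equal TMM-scaled depth, added after seeing the data, they numbered 1437 (1333 seen, 104 at 0, and 265 the reverse). With a library left out they numbered 4474 to 6789 (4325 to 6579 seen, 149 to 210 at 0, and 126 to 457 the reverse). Leaving out a library relaxes the rule, so these numbers could not become smaller. Genes that differed in relative length ranged from 0 to 77 with a library left out and numbered 0 with only Dry and Rehydrated libraries.

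Deviations of same-numbered libraries correlated only between -0.0772 and 0.138 across stages. Many tested genes had few counts, with a median of 4 in each Dry library. These correlations therefore do not exclude that same-numbered libraries were paired. With the replicate block there were 718 higher and 1412 lower genes and 3 that differed in relative length; it changed no other call by over 1.5 times. Low counts limit the rising classes most.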
